A study of Mus musculus with 24 samples.

Results

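Expression and allelic imbalance are described here for 10 genes of the thick ascending limb and the distal tubule of the mouse kidney, namely Slc12a1, Kcnj1, Umod, Egf, Slc12a3, Trpm6, Pvalb, Scnn1a, Scnn1b and Scnn1g. They were chosen by gene symbol from a list, whatever their values, and are 10 of the 37315 genes in the kidney table. Counts were present for 9 of the 10, and each of these 9 passed the minimum of 50 pooled counts in all 3 experiments. Pvalb, which encodes the calcium-binding protein parvalbumin of the early distal convoluted tubule (ENSMUSG00000005716, chr15:78191114-78206400, here and below on GRCm38), had 0 counts in all 18 kidney libraries. A count of 0 allows up to 3 counts, or 0.489 CPM (counts per 1000000 allelic counts of a library) in the smallest library. Only reads that cover a difference between the parental strains are counted, so the 0 is not a measurement of the level of Pvalb mRNA.

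The thick ascending limb reabsorbs sodium, potassium and chloride through the cotransporter NKCC2, encoded by Slc12a1, while the potassium channel ROMK, encoded by Kcnj1, returns potassium to the lumen. Cells of this segment also secrete uromodulin, encoded by Umod, the most abundant protein of normal urine, and Egf encodes the membrane-bound precursor of epidermal growth factor made in the limb and the distal convoluted tubule. Further downstream, the distal convoluted tubule takes up sodium chloride through the thiazide-sensitive cotransporter NCC, encoded by Slc12a3, and magnesium through the channel TRPM6. The late distal tubule, the connecting tubule and the collecting duct absorb sodium through the epithelial sodium channel ENaC, whose alpha, beta and gamma subunits are encoded by Scnn1a, Scnn1b and Scnn1g.

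All 18 kidney libraries were prepared from aliquots of a single total RNA, from the left kidney of 1 adult female F1 mouse of 129S1/SvImJ x CAST/EiJ background without drug treatment. Experiment 1 used the NEBNext poly-A kit with 100 ng of RNA, Experiment 2 the SMARTseq v4 kit with 10 ng, and Experiment 3 the SMARTseq v4 kit with 0.1 ng, with 6 libraries each. The libraries are technical replicates, so p-values measure the spread between library preparations and nothing here speaks to differences between animals. Experiments 1 and 2 differ in kit and in input, which cannot be told apart, whereas for Experiments 2 and 3 the labels give a difference in input only. All 3 comparisons share libraries with each other. In bulk RNA, fewer cells of a segment and less RNA per cell cannot be told apart, and here cell numbers are the same for every library because the RNA is the same.

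The deposited values are whole-number allelic counts, summed over single-nucleotide differences within the exons of a gene and split into a maternal and a paternal column. Allelic imbalance (AI) is the share of the maternal column, and 0.5 means equal counts. Counts depend on how many such differences a gene holds, so levels were compared between experiments within a gene and never between genes. Libraries held 6138693 to 6702351 counts in Experiment 1, 6360257 to 6397679 counts in Experiment 2, and 6587951 to 6616994 counts in Experiment 3. Replicate 1 of Experiment 1 stood apart, with correlations of log counts to the other 5 libraries of 0.978 to 0.981, against 0.985 to 0.988 among those 5. The number of members called in each comparison with Experiment 1 given below was the same without it, although for AI in Experiment 2 against Experiment 1 Egf then passed in place of Umod. For all 11 imprinted genes with 50 or more pooled counts the column opposite to the expected parent held most counts, by a narrow margin for Phlda2 (maternal-column share 0.460) and Slc22a18 (0.484), so AI is given as the maternal-column share and not assigned to a parent or strain. All 8 proximal tubule markers, all 5 intercalated cell markers, all 4 podocyte markers, all 4 endothelial markers and 3 of 4 collecting duct principal cell markers (Avpr2 had 0 counts) reached 10 counts in every kidney library, whereas 5 B cell markers summed to 4.25 to 14.5 CPM.

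Of the 9 members with counts, 6 were lower with either SMARTseq input than with NEBNext, as were 39.4% of all genes tested at 10 ng and 34.7% at 0.1 ng. These were the cotransporters Slc12a1 and Slc12a3, the secreted products Umod and Egf, the magnesium channel Trpm6 and the ENaC alpha subunit Scnn1a, with the largest differences for Scnn1a and Slc12a3. For the beta and gamma ENaC subunits and the potassium channel Kcnj1 the calls changed with the scaling. Levels are given in CPM, allelic counts divided by the library total. Tests used edgeR's quasi-likelihood method with TMM scaling, which sets the bulk of genes level. On totals the median gene was lower by 0.39 (log2) in Experiment 2 and by 0.40 in Experiment 3 than in Experiment 1, so log2 changes below are relative to the bulk of genes and p-values are adjusted over all genes tested. Summed markers of other kidney cell types also differed between the experiments. The principal cell sum was 1061 to 1164 CPM in Experiment 1, 1838 to 1921 CPM in Experiment 2 and 2306 to 2421 CPM in Experiment 3. The proximal tubule sum was 24600 to 26270 CPM, 17160 to 17400 CPM and 18040 to 18850 CPM in the same order. Intercalated cell markers summed to 529 to 591, 277 to 303 and 268 to 302 CPM, podocyte markers to 530 to 616, 275 to 299 and 265 to 306 CPM, and endothelial markers to 544 to 602, 440 to 471 and 421 to 489 CPM. The principal cell sum was thus higher, and the other 4 sums lower, in every SMARTseq library than in every NEBNext library. These sums are in CPM, a scale on which the median gene was also lower with SMARTseq, and are not relative to the bulk of genes. Because the RNA is the same, they do not measure a difference in cell numbers, and their relation to the members' changes was not tested.

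**Figure D1:**
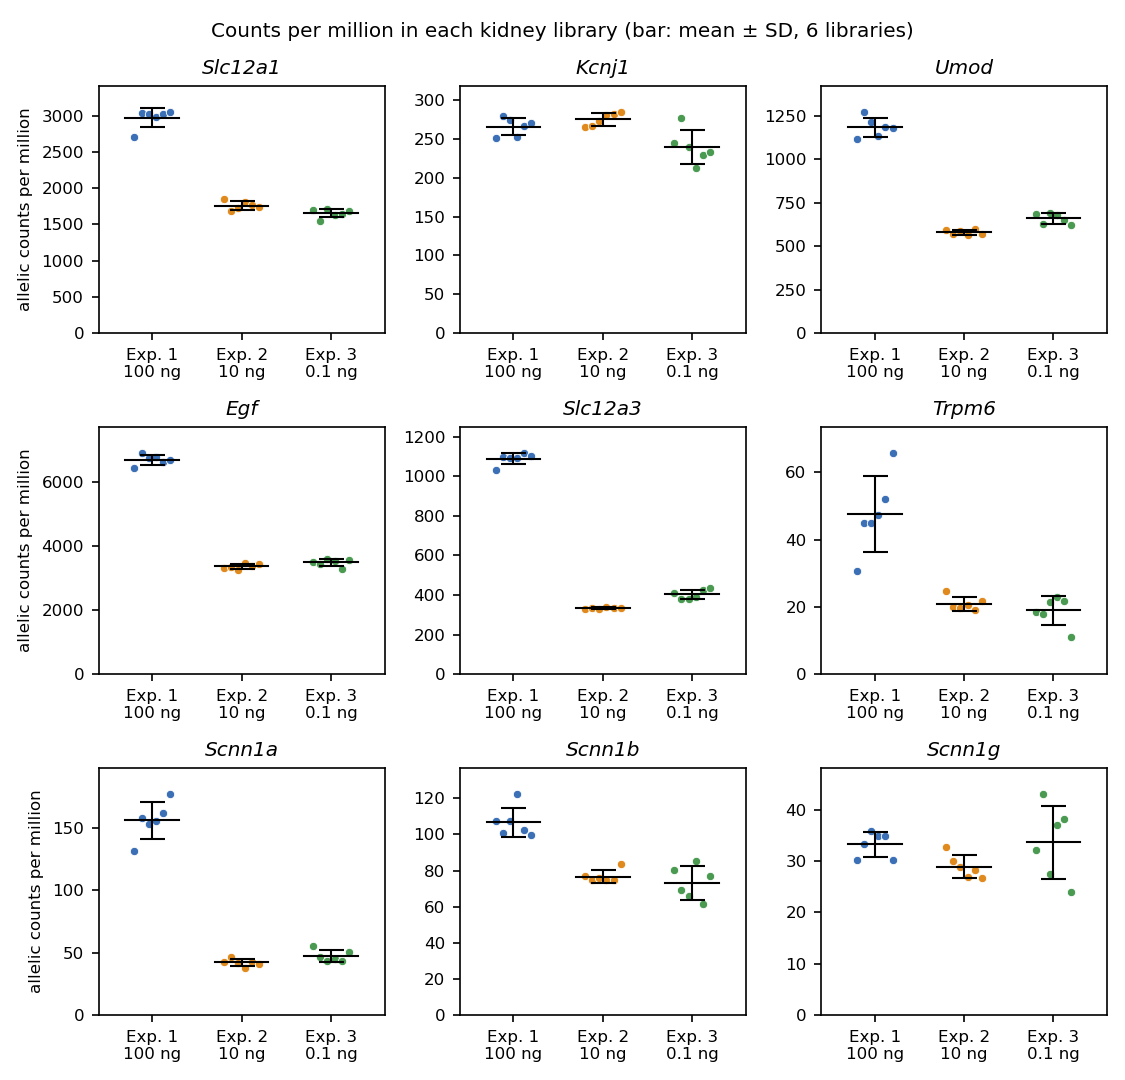
Allelic CPM (y axis, linear from 0, a separate scale for each gene) of 9 genes in the 6 libraries of each experiment (points, x axis: experiment and RNA input), with the mean ± SD as bars. Libraries of Experiment 1 lie above all others for 7 of the 9 genes, and Kcnj1 and Scnn1g overlap between experiments.

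Among the genes of the thick limb, Slc12a1 (ENSMUSG00000027202, chr2:125152505-125230002) had a lowest, median and highest level of 2709, 3027 and 3047 CPM in Experiment 1. The same 3 values were 1688, 1752 and 1846 CPM in Experiment 2 and 1554, 1663 and 1719 CPM in Experiment 3. All libraries of Experiment 1 were above all others. Relative to Experiment 1, the level fell by 0.40 ± 0.03 (log2, SE) in Experiment 2 (adjusted p = 1.84e-13) and by 0.49 ± 0.03 in Experiment 3 (adjusted p = 9.39e-12). Between the SMARTseq inputs it was lower at 0.1 ng, by a log2 change of -0.09 ± 0.02 (adjusted p = 0.0131), although the ranges overlapped.

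Kcnj1 (ENSMUSG00000041248, chr9:32372493-32399197), whose channel recycles potassium for the cotransporter, ranged from 252 to 279 CPM (median 269) in Experiment 1, from 265 to 284 (median 277) in Experiment 2 and from 213 to 278 (median 236) in Experiment 3. The 3 experiments overlapped on this scale. With TMM scaling Kcnj1 was higher than in Experiment 1, with a log2 change of 0.41 ± 0.04 in Experiment 2 (adjusted p = 1.22e-10) and of 0.20 ± 0.06 in Experiment 3 (adjusted p = 0.00333). With scaling to totals the corresponding changes were 0.05 (adjusted p = 0.217) and -0.15 (adjusted p = 0.0209). Against NEBNext, the call in Experiment 2 was thus lost with the sign kept, and the direction in Experiment 3 reversed. From 10 ng to 0.1 ng the level fell by 0.21 ± 0.05 (adjusted p = 0.0089), a call that held with either scaling.

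Umod (ENSMUSG00000030963, chr7:119462711-119479282) had 1114, 1184 and 1269 CPM as lowest, median and highest values in Experiment 1, 563, 578 and 600 CPM in Experiment 2, and 623, 665 and 692 CPM in Experiment 3. No library of any experiment overlapped with another experiment. Its level fell by 0.67 ± 0.03 from Experiment 1 to Experiment 2 (adjusted p = 3.57e-17) and was higher by 0.18 ± 0.03 in Experiment 3 than in Experiment 2 (adjusted p = 0.00024). Against Experiment 1, the change in Experiment 3 was -0.49 ± 0.04 (adjusted p = 2.31e-10). In the GENCODE M21 annotation 19.5% of its exonic bases are shared with the gene model Gm44588, and the authors left shared regions out of their counts as defined by an earlier Ensembl release.

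Egf (ENSMUSG00000028017, chr3:129677565-129755316) gave the most counts of the members. Its lowest, median and highest levels were 6432, 6718 and 6890 CPM in Experiment 1, 3260, 3366 and 3477 CPM in Experiment 2, and 3295, 3522 and 3609 CPM in Experiment 3. Both SMARTseq experiments lay well below NEBNext and overlapped with each other. The change was -0.63 ± 0.02 in Experiment 2 (adjusted p = 5.32e-21) and -0.58 ± 0.02 in Experiment 3 (adjusted p = 1.07e-14), each against Experiment 1. Between Experiments 3 and 2 the change was 0.05 with a 95% interval of 0.0073 to 0.090 (adjusted p = 0.109), and without replicate 5 of Experiment 3 it passed the test (adjusted p = 0.013).

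Slc12a3 (ENSMUSG00000031766, chr8:94329201-94366214), the sodium chloride cotransporter of the distal convoluted tubule, separated all 3 experiments. Its lowest, median and highest values were 1034, 1097 and 1116 CPM in Experiment 1, 327, 335 and 339 CPM in Experiment 2, and 379, 400 and 433 CPM in Experiment 3. The level fell by 1.35 ± 0.03 from Experiment 1 to Experiment 2, a 2.55-fold difference (adjusted p = 4.23e-25). It was then higher by 0.27 ± 0.04 at 0.1 ng than at 10 ng (adjusted p = 3.19e-05), and Experiment 3 remained lower than Experiment 1 by a change of -1.08 ± 0.04 (adjusted p = 1.47e-15). Slc12a3 and Umod were the members higher at the lower input.

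Trpm6 (ENSMUSG00000024727, chr19:18749983-18892510) is a low-count member, with 72 to 408 counts per library. Its level ranged from 30.6 to 65.6 CPM (mean 47.6) in Experiment 1, from 18.9 to 24.7 (mean 20.9) in Experiment 2 and from 10.9 to 22.8 (mean 18.9) in Experiment 3. NEBNext libraries were higher than all others in spite of their wide range. Trpm6 fell by 0.83 ± 0.13 in Experiment 2 (adjusted p = 1.28e-06) and by 0.97 ± 0.17 in Experiment 3 (adjusted p = 5.11e-05), both against Experiment 1. Between the SMARTseq inputs the change was -0.15, with a 95% interval of -0.46 to 0.17 (adjusted p = 0.583).

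The 3 ENaC subunits did not move alike between the kits. Scnn1a (ENSMUSG00000030340, chr6:125320659-125344943), the alpha subunit that the channel needs for current, ranged from 132 to 177 CPM (median 157) in Experiment 1, from 38.0 to 46.8 (median 42.3) in Experiment 2 and from 43.0 to 55.6 (median 45.7) in Experiment 3. It fell by 1.53 ± 0.07 in Experiment 2 (adjusted p = 1.31e-17), a 2.89-fold difference, and by 1.37 ± 0.08 in Experiment 3 (adjusted p = 6.14e-12). These were the largest differences among the members against Experiment 1, and the change between the SMARTseq inputs was 0.16 with a 95% interval of -0.01 to 0.33 (adjusted p = 0.224).

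Scnn1b (ENSMUSG00000030873, chr7:121865038-121918514), the beta subunit, ranged from 99.9 to 122 CPM (median 105) in Experiment 1, from 74.6 to 83.5 (median 75.3) in Experiment 2 and from 61.2 to 85.3 (median 73.1) in Experiment 3. All NEBNext libraries were above all SMARTseq libraries on this scale. Relative to the bulk of genes, its change against Experiment 1 was -0.12 ± 0.06 in Experiment 2 (adjusted p = 0.0694) and -0.19 ± 0.09 in Experiment 3 (adjusted p = 0.0568). Scaling to totals gave -0.48 (adjusted p = 3.91e-08) and -0.54 (adjusted p = 1.11e-05). With TMM the first of these changes passed without replicate 2, 5 or 6 of Experiment 1 (adjusted p between 0.0339 and 0.0463). The second passed without replicate 2 or 6 of Experiment 1 or replicate 1 or 4 of Experiment 3 (0.0202 to 0.045).

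Scnn1g (ENSMUSG00000000216, chr7:121734479-121768475), the gamma subunit, lies 96563 bases from Scnn1b. Its levels were close in the 3 experiments, from 30.1 to 35.8 CPM (median 34.1), from 26.6 to 32.7 (median 28.5) and from 24.0 to 42.9 (median 34.6). With TMM scaling the change against Experiment 1 was 0.15 ± 0.09 in Experiment 2 (adjusted p = 0.106) and 0.37 ± 0.13 in Experiment 3 (adjusted p = 0.0160). With scaling to totals these changes were -0.20 (adjusted p = 0.0367) and 0.02 (adjusted p = 0.897). Between the SMARTseq inputs the changes of Scnn1b and Scnn1g were -0.07 and 0.22, with 95% intervals of -0.23 to 0.09 and -0.05 to 0.48.

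**Figure D2:**
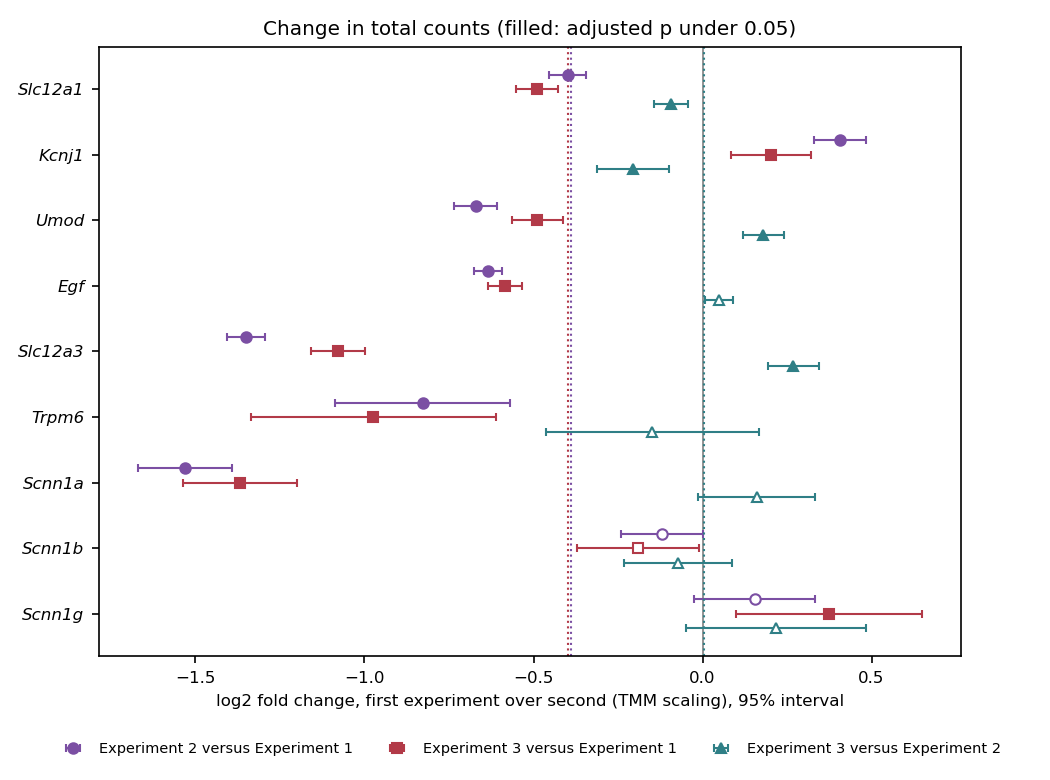
Log2 fold change of total counts (x axis, TMM scaling, 95% intervals) for 9 genes (y axis) in 3 comparisons of experiments (symbols, filled where the adjusted p was under 0.05). Dotted lines mark where the median of all genes lies when libraries are scaled to their totals, at -0.39 and -0.40 for the comparisons with Experiment 1, and Scnn1a and Slc12a3 lie farthest to the left.

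Counted over the members, Experiment 2 against Experiment 1 gave 1 higher and 6 lower of 9, while 38.1% of all 12012 genes tested were called higher and 39.4% lower. The median change of the members was -0.63, and that of all genes was -0.03. Ranges of CPM did not overlap for 7 of 9 members and for 63.5% of all genes. With scaling to totals, 0 members were higher and 8 lower by edgeR's test, with Kcnj1 the exception, and the calls over all genes went from 4582 higher and 4737 lower to 3409 higher and 6293 lower. The members' counts are to be read against these shares.

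Of the 9 members, 2 were higher and 6 lower in Experiment 3 against Experiment 1, beside 34.7% of 12054 genes higher and 34.7% lower, with a median of -0.49 for the members and -0.04 for all genes. Ranges of CPM did not overlap for 7 members and for 55.2% of genes. Scaling to totals gave 0 higher and 8 lower members, and over all genes 3113 higher and 5767 lower in place of 4180 and 4187. Where the kit was the same, in Experiment 3 against Experiment 2, 2 members were higher and 2 lower, against 8.77% and 6.95% of 11761 genes. Here 2 members and 9.11% of all genes had ranges of CPM that did not overlap, and the medians were 0.05 and -0.00081.

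Another 32 genes of the same nephron segments were listed, covering ion transport, claudins, calcium and magnesium handling, regulators and transcription factors. Of 31 tested in Experiment 2 against Experiment 1, 8 were higher, 18 lower and 5 not called, with a median change of -0.59. Over all genes tested, 38.1% were higher and 39.4% lower. With scaling to totals 7 of the 31 were higher and 21 lower. Among the largest changes called were those of the kinase Wnk4 (-3.35, a regulator of the cotransporter NCC) and of Fxyd2 (2.81), which encodes a small regulatory membrane protein. Of 32 tested in Experiment 3 against Experiment 1, 9 were higher and 18 lower (7 and 21 with scaling to totals). Over all genes tested, 34.7% were higher and 34.7% lower. The largest changes there included those of the calcium-sensing receptor Casr (-2.81) and of Fxyd2, which was 6.06-fold higher. At 0.1 ng against 10 ng, 7 of 31 were higher and 4 lower, beside 8.77% and 6.95% of all genes tested. Here the largest changes included those of Wnk4 (1.43) and of Bsnd, which encodes barttin (0.65).

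The share of counts from each allele was close to 0.5 for most members, with consistent departures for Umod and Egf. Umod was below 0.5 and Egf above 0.5 in 18 of 18 libraries. Scnn1b was above 0.5 in 17 of 18, and more so with SMARTseq at 10 ng than with NEBNext. Pooled counts of an experiment were tested against 0.5 with a two-sided proportional test. The counts were first divided by the square of the quality correction constant (QCC), the factor by which the spread between libraries exceeds counting error, which averaged 1.85, 1.47 and 2.59 over 15 pairs of libraries in Experiments 1, 2 and 3. QCC is 1 factor for all genes of an experiment, so a gene whose libraries spread more gets too narrow an interval and too small a p-value. P-values from this test carry a Bonferroni correction over all genes with 50 pooled counts. With this test 2, 3 and 3 members of 9 differed from 0.5, against 16.5%, 22.6% and 12% of all genes.

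**Figure D3:**
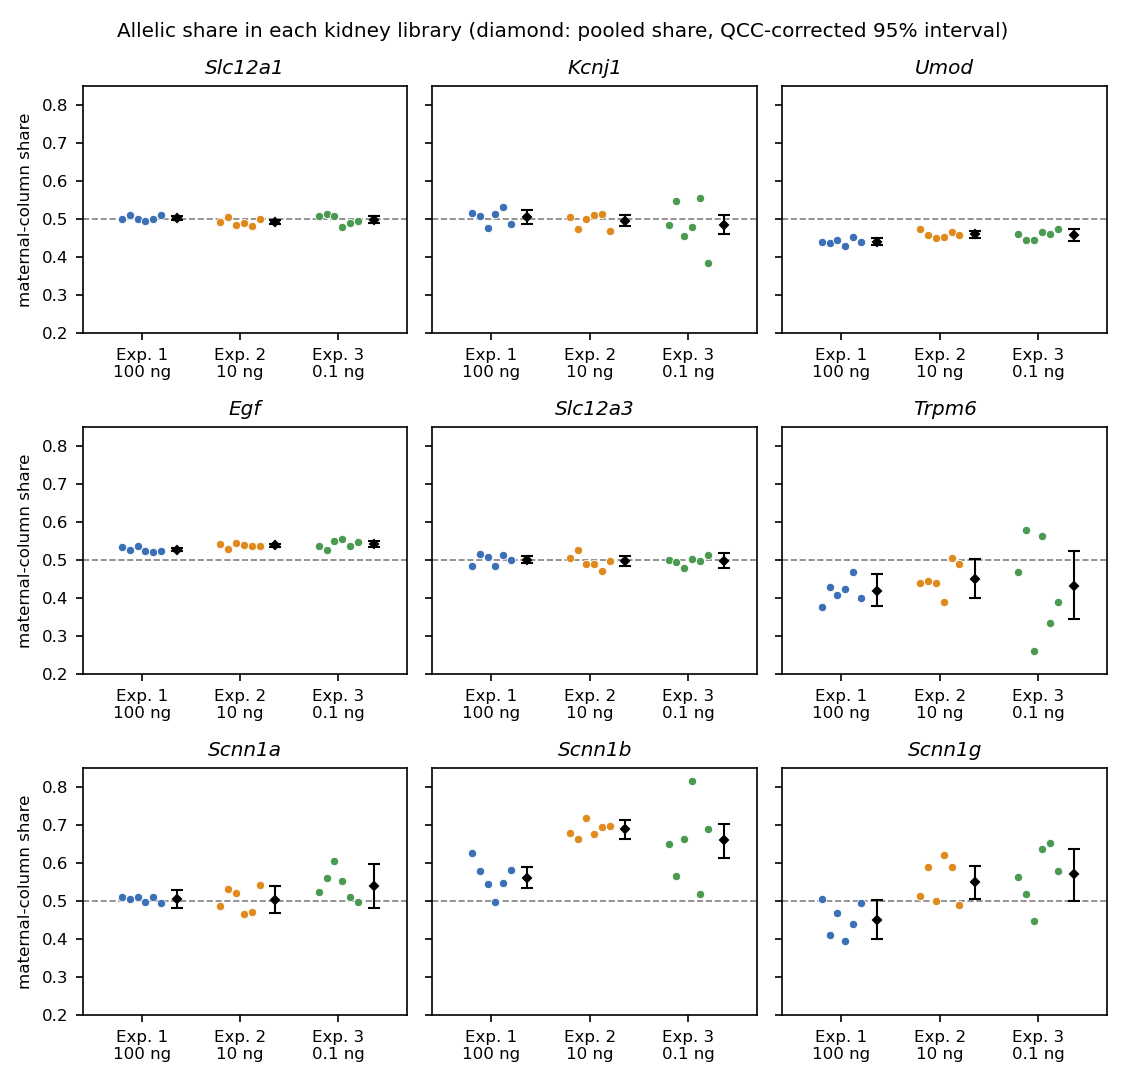
Maternal-column share of allelic counts (y axis, from 0.2 to 0.85, equal counts at the dashed line) of 9 genes in the 6 libraries of each experiment (points, x axis: experiment and RNA input). Diamonds give the share of the pooled counts with a QCC-corrected 95% interval. Umod sits below the line and Egf above it throughout, Scnn1b moves up from 0.562 to 0.688 between Experiments 1 and 2, and Trpm6 and Scnn1b scatter most in Experiment 3.

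For Umod, the lowest, median and highest AI of the libraries were 0.428, 0.440 and 0.454 with NEBNext. They were 0.449, 0.458 and 0.474 with SMARTseq at 10 ng, and 0.444, 0.461 and 0.474 at 0.1 ng. The pooled AI was 0.440 (95% interval 0.432 to 0.449), 0.460 (0.450 to 0.469) and 0.458 (0.443 to 0.474). It differed from 0.5 in every experiment, with corrected p-values of 1.33e-38, 3.35e-12 and 0.00236. The last of these was lost when replicate 2 or replicate 3 of Experiment 3 was left out (0.0786 and 0.115).

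For Egf, the corresponding library values were 0.520, 0.525 and 0.537 with NEBNext. They were 0.528, 0.539 and 0.545 at 10 ng, and 0.526, 0.542 and 0.556 at 0.1 ng. The pooled AI was 0.528 (0.524 to 0.531), 0.538 (0.534 to 0.542) and 0.542 (0.535 to 0.549). At 129175 to 255154 pooled counts per experiment, a departure this small passed the test each time. The corrected p-values were 8.1e-47, 2.54e-74 and 1.15e-29. The libraries of Egf spread by 2.71, 1.74 and 3.38 times counting error in Experiments 1, 2 and 3, above the QCC of 1.85, 1.47 and 2.59. Its intervals and p-values therefore understate the spread of this gene. In GENCODE M21, 9.82% of the exonic bases of Egf are shared with 6330410L21Rik and Gm42697.

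For Scnn1b, the library values were 0.499, 0.562 and 0.626 with NEBNext. They were 0.662, 0.687 and 0.719 at 10 ng, and 0.519, 0.657 and 0.816 at 0.1 ng. Every library of Experiment 2 was above every library of Experiment 1, and Experiment 3 spanned nearly the whole range of both. The pooled AI was 0.562 (0.533 to 0.590) in Experiment 1. This did not pass the test, with a corrected p of 0.27, but passed without replicate 4 (0.0285). Without replicate 1, the library that stood apart, the departure from 0.5 was 0.048 and did not pass. The pooled AI was 0.688 (0.663 to 0.712) in Experiment 2 and 0.659 (0.614 to 0.703) in Experiment 3, with corrected p-values of 6.47e-40 and 4.05e-07. The call in Experiment 3 was lost without replicate 4 (0.0651). The libraries of Scnn1b in Experiment 3 spread by 4.84 times counting error, against the QCC of 2.59. The interval and p-value there therefore understate the spread of this gene.

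The remaining members did not pass the corrected test in any experiment. Among them the cotransporters had the narrowest intervals, with a pooled AI of 0.502, 0.492 and 0.499 for Slc12a1 and of 0.501, 0.497 and 0.498 for Slc12a3 in Experiments 1, 2 and 3. The interval of Slc12a1 in Experiment 2, 0.486 to 0.497, left out 0.5, but its libraries there spread by 1.97 times counting error, above the QCC of 1.47. Slc12a1 passed there with Benjamini-Hochberg adjustment (adjusted p = 0.0115) and with edgeR's test (adjusted p = 0.0385). The widest 95% intervals of the 2 cotransporters, both in Experiment 3, were 0.489 to 0.508 and 0.478 to 0.518. Kcnj1 had 0.505, 0.496 and 0.485, and Scnn1a 0.505, 0.504 and 0.540. Trpm6 was below 0.5 in 15 of 18 libraries, with a pooled AI of 0.420 (0.378 to 0.462), 0.451 (0.401 to 0.502) and 0.432 (0.344 to 0.525), and all 6 libraries of Experiment 1 were below 0.5. Scnn1g was the member whose pooled AI lay below 0.5 with NEBNext, at 0.451 (0.401 to 0.502), and above it with SMARTseq, at 0.550 (0.506 to 0.592) and 0.570 (0.501 to 0.637). Of 31 other genes of these segments, 8, 8 and 6 differed from 0.5 in Experiments 1, 2 and 3. The shares over all genes were 16.5%, 22.6% and 12%.

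Between Experiment 2 and Experiment 1, AI rose for Scnn1b, Scnn1g and Umod by edgeR's test, of which the change of Scnn1b was the largest. The test used the spread between libraries as its error, with a term for each library, for the allele and for allele by experiment, fitted with edgeR across all genes. With it 3 of 9 members were called, all towards the maternal column, against 10.6% of 10127 genes tested. DESeq2 and limma each called 1 member, Scnn1b, against 9.11% and 6.82% of all genes. Ranges of AI did not overlap for 1 member, Scnn1b, and for 6.32% of genes. The log2 odds ratio of Scnn1b was 0.78 ± 0.12 (SE), with an adjusted p of 2.71e-05. It lay between 0.70 and 0.86 when single libraries were left out, and the call held each time. The maternal column held 46.64% to 46.77% of all counts of a library in Experiment 1 and 47.98% to 48.11% in Experiment 2, while the median log2 odds ratio over all genes was -0.00098, and the part of this shift in the members' changes was not tested.

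For Scnn1b the difference lay mostly in the paternal column. Its mean went from 46.8 ± 7.7 CPM (SD, n = 6) in Experiment 1 to 23.9 ± 1.6 CPM in Experiment 2, while the maternal column went from 59.8 ± 4.0 to 52.8 ± 3.1 CPM. Relative to the bulk of genes these are log2 changes of -0.61 for the paternal and 0.17 for the maternal column. For Scnn1g the maternal column was at 14.96 ± 1.1 and 15.9 ± 1.8 CPM and the paternal column at 18.2 ± 2.5 and 13.0 ± 2.1 CPM. Which column of Scnn1g differed more depended on the scale, since the log2 changes were 0.09 (maternal) and -0.49 (paternal) in CPM but 0.44 and -0.13 relative to the bulk of genes. The columns were not tested separately.

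Scnn1g had library values of 0.395, 0.454 and 0.505 (lowest, median and highest) in Experiment 1 and of 0.488, 0.551 and 0.622 in Experiment 2, which overlapped. Its log2 odds ratio was 0.57 ± 0.19 (adjusted p = 0.0459). The call was lost without replicate 2, 3, 4 or 5 of Experiment 1 or replicate 2, 4 or 5 of Experiment 2 (adjusted p between 0.0584 and 0.126). It was also lost with Experiment 1 thinned to its smallest library (adjusted p = 0.0614). For Umod the log2 odds ratio was 0.11 ± 0.04 (adjusted p = 0.0494). That call held without replicate 5 of Experiment 1 or replicate 3 of Experiment 2, and was lost without any 1 of the other 10 libraries (0.0524 to 0.14). Both calls are therefore at the edge of the threshold. Egf moved in the same direction by 0.06 ± 0.02 (adjusted p = 0.0557), and passed without replicate 1 or 3 of Experiment 1 or replicate 2 of Experiment 2 (0.0236 to 0.0274).

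Narrow limits could be set for both cotransporters, whose log2 odds ratios between Experiments 2 and 1 were -0.06 (95% interval -0.12 to -0.0037, adjusted p = 0.199) for Slc12a1 and -0.02 (-0.12 to 0.08, adjusted p = 0.863) for Slc12a3. Kcnj1 had -0.06 (-0.20 to 0.08), Scnn1a -0.0094 (-0.23 to 0.21) and Trpm6 0.19 (-0.16 to 0.54). The wide interval of Trpm6 goes with 121 to 157 counts per library in Experiment 2.

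**Figure D4:**
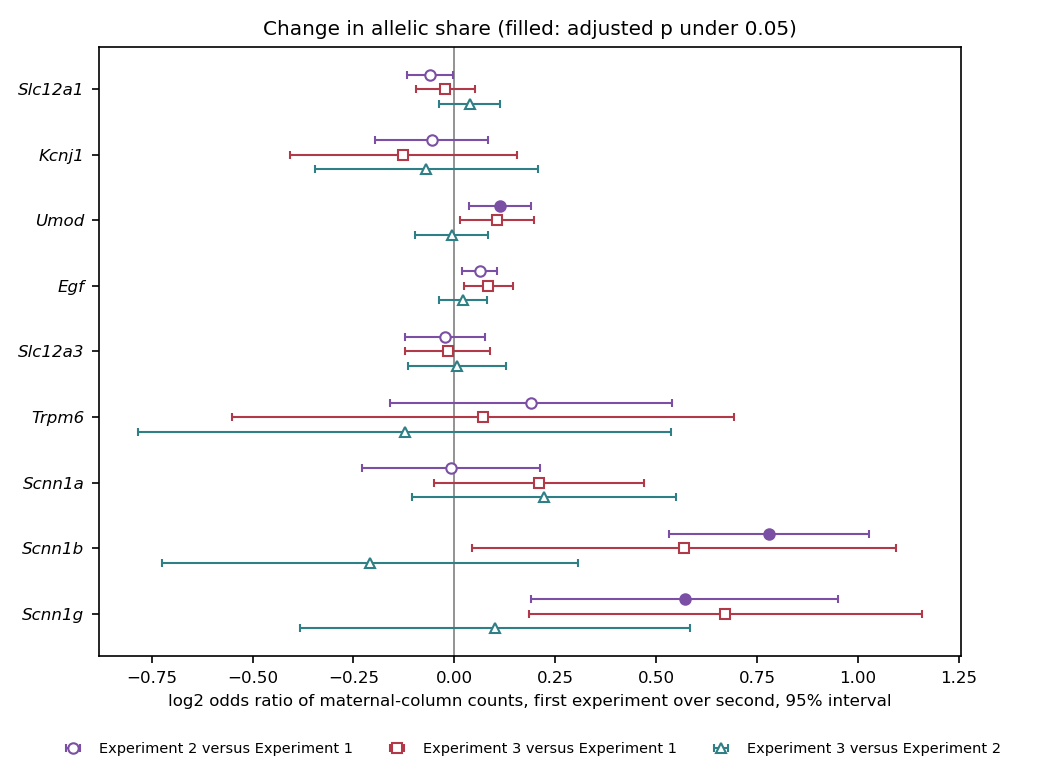
Log2 odds ratio of maternal-column counts (x axis, 95% intervals) for 9 genes (y axis) in 3 comparisons of experiments (symbols, filled where the adjusted p was under 0.05). Only Scnn1b, Scnn1g and Umod in Experiment 2 versus Experiment 1 are filled, and all 9 intervals of Experiment 3 versus Experiment 2 include 0.

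In Experiment 3 against Experiment 2, edgeR called 0 of 9 members, 0 had an unadjusted p under 0.05, and DESeq2 and limma also called 0. Of 10020 genes, edgeR called 0.659%, DESeq2 0.888% and limma 0.26%. The ranges of 0 members and of 1.16% of genes did not overlap. The intervals were narrow for Umod (-0.10 to 0.08), Slc12a3 (-0.12 to 0.13) and Slc12a1 (-0.04 to 0.11), and wide for Scnn1b (-0.73 to 0.31) and Trpm6 (-0.78 to 0.54). Between Experiments 2 and 1 the log2 odds ratios of Umod, Slc12a3 and Slc12a1 were 0.11, -0.02 and -0.06. The first 3 intervals are therefore narrow only beside larger changes, such as the 0.78 of Scnn1b between Experiments 2 and 1.

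In Experiment 3 against Experiment 1, edgeR again called 0 of 9 members, with 4 at an unadjusted p under 0.05 and 0 called by DESeq2 or limma. Of 9733 genes, edgeR called 6.24%, DESeq2 7.7% and limma 4.25%. Ranges did not overlap for 0 members and for 4.89% of genes. The 4 were Scnn1g with 0.67 ± 0.23 (adjusted p = 0.109), Egf with 0.08 ± 0.03 (adjusted p = 0.11), Scnn1b with 0.57 ± 0.25 (adjusted p = 0.24) and Umod with 0.11 ± 0.04 (adjusted p = 0.205). Scnn1g passed without replicate 3 of Experiment 3 (0.0353) and Egf without replicate 2 of Experiment 3 (0.03). Each of the 4 had a positive log2 odds ratio. The maternal column held 46.64% to 46.77% of all counts of a library in Experiment 1 and 48.08% to 48.29% in Experiment 3. The median log2 odds ratio over all genes was 0.0035, and the part of this shift in the 4 changes was not tested.

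Among the other genes of these segments, 30 were tested for AI. In Experiment 2 against Experiment 1, 2 moved towards the maternal column, the transcription factor Tfap2b (0.63) and the potassium channel subunit Kcnj16 (0.32), and 1 away from it, Fxyd2 (-0.54). Over all genes tested, 10.6% were called, so the count of these genes is near that share. In Experiment 3 against Experiment 1, 4 moved towards the maternal column and 1 away, against 6.24% of all genes called. They were led by the sodium-calcium exchanger Slc8a1 (1.47), Tfap2b (1.20) and Fxyd2 (-0.51). Slc8a1 had only 163 pooled counts in Experiment 3. Its pooled AI there, 0.736 (0.538 to 0.870), did not pass the corrected test against 0.5. Between the SMARTseq inputs edgeR called 0, against 0.659% of all genes, with 3 at an unadjusted p under 0.05.

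The spread of AI over the 6 libraries was widest at 0.1 ng. The SD of AI was higher in Experiment 3 than in Experiment 2 for 8 of 9 members and 83.8% of genes, and higher in Experiment 3 than in Experiment 1 for 8 of 9 members and 71.5% of genes. Slc12a3 was the exception in both, with SDs of 0.0137, 0.0182 and 0.0111 in Experiments 1, 2 and 3. Experiment 1 had a higher SD than Experiment 2 for 3 of 9 members and 58.4% of genes.

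Counting error alone gives a spread that depends on depth, so the observed spread was divided by the spread that counting error gives. A ratio of 1 means counting error only. The median ratio of the members was 1.69, 1.51 and 2.63 in Experiments 1, 2 and 3, and that of all genes with 10 counts in every library was 1.66, 1.31 and 2.19. In Experiment 3 the ratio was 5.05 for Kcnj1, with 1.56% of 10195 genes at or above it, and 4.84 for Scnn1b, with 2.24% at or above. It was 3.38 for Egf and 3.00 for Trpm6, while Slc12a3 at 1.14 and Scnn1a at 1.36 stayed near counting error.

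**Figure D5:**
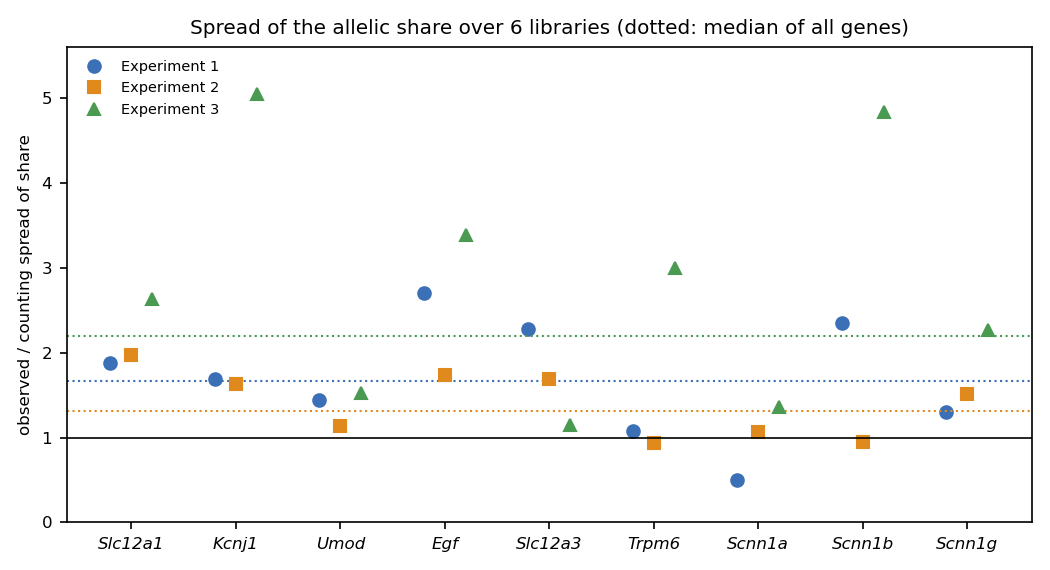
Observed spread of the maternal-column share over 6 libraries divided by the spread expected from counting error (y axis, linear from 0, solid line at 1) for 9 genes (x axis) in 3 experiments (symbols). Dotted lines give the median of all genes in each experiment, and Kcnj1 at 5.05 and Scnn1b at 4.84 in Experiment 3 are the highest points.

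These ratios correspond to large differences between single libraries of the same RNA. In Experiment 3, AI of Kcnj1 ranged from 0.384 in replicate 6 to 0.554 in replicate 5, at 1406 to 1836 counts per library, against 0.475 to 0.532 in Experiment 1 and 0.468 to 0.514 in Experiment 2. Scnn1b had 460 maternal-column and 104 paternal-column counts in replicate 4 of Experiment 3 but 210 and 195 in replicate 5. Trpm6 ranged from 0.261 in replicate 3 to 0.580 in replicate 2 of the same experiment, and from 0.376 to 0.469 in Experiment 1. Kcnj1 and Trpm6 had libraries on both sides of 0.5 at 0.1 ng, whereas all 6 Scnn1b libraries were above it.

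Levels spread differently from allelic shares. The coefficient of variation of CPM was 2.33% to 3.21% for Egf in the 3 experiments and 1.29% for Slc12a3 in Experiment 2, where counting error alone gives 2.17%. Trpm6 had the widest levels, with 23.9% in Experiment 1 and 23.2% in Experiment 3 against counting errors of 5.77% and 8.94%, and Scnn1g had 21.1% in Experiment 3 against 6.7%. The median coefficient of variation was 4.75%, 3.25% and 9.03% for the members and 13.35%, 11.15% and 17.77% for all genes in Experiments 1, 2 and 3. The median ratio of observed to counting variation was 2.96, 1.15 and 2.99 for the members and 1.79, 1.31 and 2.23 for all genes. Counting variation falls with the number of counts, for which members and all genes were not matched, so the higher ratios do not mean wider levels. In Experiment 2 the ratio of single members ran from 0.597 for Slc12a3 to 3.43 for Egf and 3.45 for Slc12a1.

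Testing each library alone shows how often a call made from 1 library would have been repeated. Without correction, Egf differed from 0.5 in 6 of 6 libraries of every experiment, Umod in 6, 4 and 5, and Scnn1b in 1, 6 and 4 libraries of Experiments 1, 2 and 3. With the correction by QCC these were 5, 6 and 3 for Egf, 5, 0 and 0 for Umod, and 0, 6 and 1 for Scnn1b. Kcnj1, Scnn1g and Trpm6 were each called in 1 of 6 libraries of Experiment 3 without correction and in 0 with it. Slc12a1, Slc12a3 and Scnn1a were called in 0 libraries of any experiment with or without correction. Over all genes with 10 counts, the mean share called per library went from 14.5%, 13.9% and 20.9% without correction to 4.72%, 7.75% and 3.43% with it.

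The clonal B cell lines of the study, Abl.1 and Abl.2, which are immortalised B cells from mice of the same strain background, give a level for cells other than kidney. In the 4 libraries of the first sequencing run, 7 of the 10 members had 0 counts in every library, at totals of 19213150 to 22241719 counts. Egf had 40 and 78 counts in Abl.1 and 123 and 106 in Abl.2, or 2.08 to 5.76 CPM. Umod had 174 and 200 counts in Abl.2 and 0 in Abl.1, and Slc12a3 had 8 and 5 counts in Abl.2 and 0 in Abl.1. The 5 B cell markers summed to 2502 to 4615 CPM in these lines.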

How the data were processed

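The authors aligned reads with STAR 2.5.4a to GRCm38 pseudogenomes of both strains, sampled them to equal numbers, kept unique alignments, and deposited allelic counts per gene and library, summed over SNPs in merged exons (samtools mpileup) without normalization. Reads that cover more than 1 SNP add a count at each of them and there are no molecular identifiers, so counts are not independent molecules. The limit given for a count of 0 covers counting error only. The intervals include the spread between libraries through the edgeR fit, or through QCC as 1 average factor for all genes of an experiment. The deposited AI fractions were not used.

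Members, gene lists and tests were chosen with earlier results of these data known. All 10 members are named. Of the 32 other segment genes, the text counts those called and names at most the 3 largest changes called per comparison and measure. Some of the genes this rule selects are not reported here.

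Total counts were tested with edgeR 4.0.16 (quasi-likelihood test, TMM, at least 10 counts in 6 of 12 libraries) and AI with edgeR on both columns (at least 10 counts in all 12), with Benjamini-Hochberg adjustment at 0.05. Pooled AI was tested against 0.5 after division by QCC squared, with Bonferroni correction. QCC was computed after the study's method in bins of base 1.05 with at least 40 genes and a mean coverage of at least 50. In the main tests Experiment 1, whose totals differ by over 5%, was thinned for QCC only. Alternatives also tested libraries thinned to the smallest total of their experiment. Tests are two-sided. Alternatives used DESeq2 1.42.0, limma 3.58.1 (logit AI, 0.5 added to counts), other scalings, filters and corrections, the replicate number as a block, and each library left out. Python 3.11.15, scipy 1.17.1 and R 4.3.3 were used, and the procedures were tested on simulated data. The second run of Abl.2 was not analysed here.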

Additional observations from a re-analysis of the deposited data

Results flagged for a closer look

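Among 54 sets of 6 libraries (CPM and AI of 9 members in 3 experiments), 4 held a library whose gap to its neighbour, as a share of the range, was above the 95% critical value of Dixon's test, where chance gives about 1 set in 20. Slc12a1 in replicate 1 of Experiment 1 was at 2709 CPM, with the next library at 2990 CPM and a gap of 0.829 of the range. Slc12a3 in the same library was at 1034 CPM, next to 1091 CPM (0.696). Scnn1b was high in replicate 4 of Experiment 1, at 122 CPM next to 107 CPM (0.661), and in replicate 6 of Experiment 2, at 83.5 CPM next to 76.9 CPM (0.741). No set of AI values was flagged in this way.

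The allelic share differed between Experiment 2 and Experiment 1 in the test of the difference itself for Scnn1b (log2 odds ratio 0.7791), Scnn1g (0.5704) and Umod (0.1129). Only the first of these held with each library left out, with DESeq2 and with limma.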

How the results depend on the processing

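Of 1179 values for single genes under the alternatives, 1119 kept their side of the threshold, and 31 of these, all called in neither fit and all with 1 library left out, changed sign. With scaling to totals, chosen after seeing the data, 2 values reversed. These were the changes in level of Scnn1g in Experiment 2 (-0.20) and of Kcnj1 in Experiment 3 (-0.15), both against Experiment 1. The number of members called for AI in Experiment 2 against Experiment 1 was 3. It was 2 with Experiment 1 thinned to its smallest library, and 1 with DESeq2 and with limma. Over all genes these 4 fits called 10.6%, 10.6%, 9.11% and 6.82%. In Experiment 1, 2 members differed from 0.5, and 4 without QCC, with Benjamini-Hochberg adjustment or with edgeR's test, which added Scnn1b and Trpm6. Over all genes there, the main test called 16.5% and edgeR's test 34.5%, so the members' count is to be read against a higher share. Without single libraries, the members called for AI were 1 to 3 in Experiment 2 and 0 to 1 in Experiment 3, each against Experiment 1. The other counts of members stayed within 1.5 times. The causes were not tested.

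Replicate numbers name library preparations only. For each gene, the mean over the 6 libraries of an experiment was subtracted from the log level and from the log allele ratio. Correlations of these deviations between libraries of the same number in 2 experiments lay between -0.044 and 0.035. For 0 to 2 of 6 libraries the highest correlation was with the library of the same number. With a replicate block, 7, 4 and 9 members were called for level and 2, 0 and 0 for AI, in Experiment 2 against 1, 3 against 2 and 3 against 1. Over all genes the same fits called 76.8%, 13.3% and 68.6% for level and 9.72%, 0.28% and 5.1% for AI. The 2 members called for AI were Scnn1b and Egf (adjusted p = 0.0389). Umod (adjusted p = 0.0627) and Scnn1g (adjusted p = 0.0899) were not called with the block.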
